A study of Mus musculus with 54 samples.

Results

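Zfp_MB001 and Zfp988 are 2 KRAB-zinc finger proteins (KZFPs) of the C57BL/6J gene cluster on chromosome 4, and their binding sites were compared here. The members are the 1335 ChIP-seq peaks deposited for either protein, 1153 for Zfp_MB001 and 182 for Zfp988, out of 25012 peaks of 42 KZFPs. A site was called shared when its peaks in both lists overlapped by at least 1 bp. The members were thus chosen by the deposited peak calls and their overlap. That rule gave 119 sites in both lists, 1034 peaks in the Zfp_MB001 list only and 63 peaks in the Zfp988 list only. The pair was chosen because its lists overlap although the proteins carry different zinc finger arrays, so the number of shared sites is a description and was not tested.

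Each protein was over-expressed in F9, a line of mouse embryonal carcinoma cells, with an HA tag at its C terminus, and recovered with an antibody against HA. Zfp_MB001 was profiled in batch 4 and Zfp988 in batch 3. Each protein has 1 library without a replicate, so no value below carries an error between experiments. Each batch was compared with its own mixed input, and the 4 empty vector controls belonged to batch 1 (1 library), batch 2 (1) and batch 4 (2), so Zfp988 had no such control from its own batch. Binding of an over-expressed, tagged protein in a cell line is not a measure of binding by the protein at its natural level.

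A KZFP combines a KRAB domain, which recruits the corepressor TRIM28 and with it the machinery of heterochromatin, with a row of C2H2 zinc fingers that reads DNA. Each finger contacts about a triplet of bases, mainly through a few amino acids known as its fingerprint, and the last finger lies at the 5′ end of the bound strand. Many KZFPs of young clusters bind endogenous retroviruses, and related arrays arise by gene duplication.

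The arrays of the pair are related without being identical. Zfp_MB001 has 18 annotated fingers and Zfp988 has 14. Aligned without gaps from the last finger, 11 of the 14 aligned pairs of fingers have the same fingerprint. Pairs that differ are finger 17 of Zfp_MB001 against finger 13 of Zfp988, and finger 13 of Zfp_MB001 against finger 9 of Zfp988. Finger 5 of Zfp_MB001 against finger 1 of Zfp988 also differs. Sites are read here against the motif that the study obtained for Zfp988 with RCADE, a method that combines the array with the sequences of the bound regions. It is shown with a stretch of 13 bases (called the core here) in capitals. The core was chosen with the motifs of both proteins in view.
Zfp988 RCADE motif: gaGAGGAATCCTCCCcccctcaaagggcaa
Because the motif and the core were derived from these peaks, a match to them is a description and not independent evidence of binding.

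The 30 bases of genomic sequence (GRCm39) aligned to the Zfp988 motif are given for shared sites with a core match, ordered by the lower of the 2 fold enrichments. Another such site with a higher lower fold than Upf1 is not shown. Capitals mark the 13 positions of the core.
Gm63776 exon, chr8:71318339-71318368, minus strand: taGGGGAATCCTCCAccgccctagcgccca
Gm71715 promoter, chr5:53828888-53828917, plus strand: aaGAGGCATCCTCACcccccaagtgagctt
Efcab12 promoter, chr6:115815295-115815324, minus strand: taCAGGAATCCTCCGgctccgggcggcaga
Dus2 exon, chr8:106781086-106781115, minus strand: gaGGGGAATCCTCCCcccatataccctggc
Upf1 promoter, chr8:70806639-70806668, plus strand: cgGGGGAATCCTCCTgcctcaaagtgcctg
The same stretch is given for the sites of the Zfp_MB001 list only that have a core match and the highest fold enrichment.
Asic1 intron, chr15:99577122-99577151, plus strand: ggGTAGAATCCTCCCacccacctcctcagc
Gm48302 exon, chr13:75876739-75876768, plus strand: tgAAAGAATCCTCCCacctctccctgccaa
Ccnd3 promoter, chr17:47905879-47905908, plus strand: gtGCGGAATCCTCCCcccccccccccgccc
Usp21 promoter, chr1:171115555-171115584, plus strand: acTCGGAATCCTCCCacctacctcctcggc
The Dus2 and Ccnd3 stretches have 1 mismatch to the core and the others have 2.

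Most Zfp988 peaks lay on Zfp_MB001 peaks, while most Zfp_MB001 peaks had no counterpart. The 119 shared sites made up 10.3% of the 1153 Zfp_MB001 peaks (exact 95% binomial interval 8.62% to 12.2%) and 65.4% of the 182 Zfp988 peaks (58.0% to 72.3%). The rule fixed these shares. For background, 0.667% of the 23677 peaks of the other 40 lists overlapped a Zfp_MB001 peak and 0.114% overlapped a Zfp988 peak. Among the other lists of batch 4 these percentages were 0.611% and 0.071%, and among the other lists of batch 3 they were 0.731% and 0.225%. The intervals given here and below cover counting error only, because there are no replicates. The lists carry no read counts, so the number of reads behind a single peak is unknown.

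The pairs were unambiguous. All 119 were pairs in which each peak overlapped exactly 1 peak of the other list. The smallest overlap was 244 bp and the median was 455 bp. The closest peak of the Zfp988 list only was 3181 bp from a Zfp_MB001 peak and the next closest was 14516 bp away. None of the 63 peaks of the Zfp988 list only had a summit within 1 kb of a Zfp_MB001 summit, 1 had one within 10 kb, and the median distance was 503809 bp.

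The 2 proteins' summits nearly coincided at the shared sites. The distance between the summits had a median of 8 bp (95% interval of the median from order statistics, 5 to 10 bp), quartiles of 3 and 17 bp and a maximum of 51 bp. It was at most 10 bp at 77 of the 119 sites, at most 25 bp at 111 and at most 50 bp at 118. The direction was balanced, with a median of 1 bp for the Zfp_MB001 summit minus the Zfp988 summit on the plus strand. Along the strand of the core, at the 15 shared sites with a core match, the Zfp_MB001 summit lay downstream of the Zfp988 summit at 7 and upstream at 8. Overlap of the peaks does not by itself fix where the summits lie within peaks of this width, whose median at the shared sites was 599 bp for Zfp_MB001 and 493 bp for Zfp988.

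**Figure D1:**
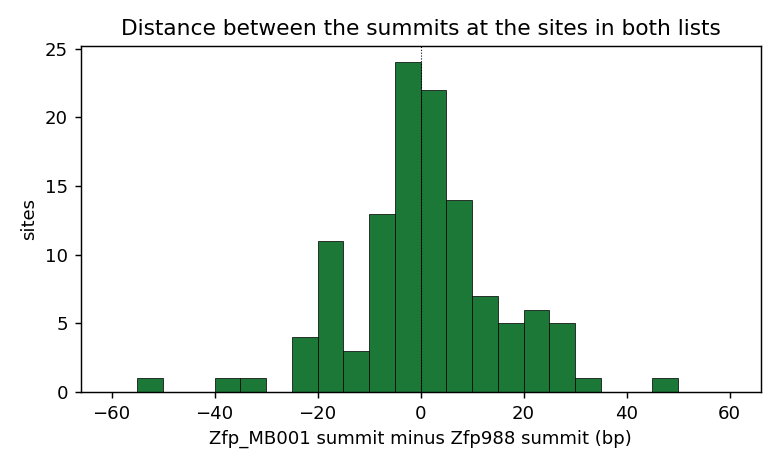
Histogram of the distance in bp between the Zfp_MB001 and the Zfp988 summit at the 119 shared sites, in bins of 5 bp (vertical axis, number of sites). The distances centre on 0, and 111 of the 119 sites lie within 25 bp.

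Shared sites were more frequent among the strong peaks of both lists. Of the Zfp_MB001 peaks with a fold enrichment of 50 or more, 29 of 69 were shared (42.03%, exact interval 30.2% to 54.5%), against 24 of 566 with a fold of 10 to 15 (4.24%, 2.74% to 6.24%). Of the Zfp988 peaks, 13 of 14 with a fold of 50 or more were shared (92.9%, 66.1% to 99.8%), against 44 of 95 with a fold of 10 to 15 (46.3%, 36.0% to 56.8%). Of the 50 Zfp_MB001 peaks with the highest fold, 20 were shared, and of the 50 Zfp988 peaks with the highest fold, 47 were. The median Zfp_MB001 fold was 25.6 at shared sites (quartiles 16.9 and 48.7) and 14.7 at sites of its list only (11.8 and 20.7). The median Zfp988 fold was 17.4 at shared sites (12.7 and 28.4) and 12.1 at sites of its list only (10.9 and 14.2). No deposited peak had a fold below 10, and the lowest were 10.04 for Zfp_MB001 and 10.01 for Zfp988, so a site in 1 list only can be a site with a lower fold in the other library.

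**Figure D2:**
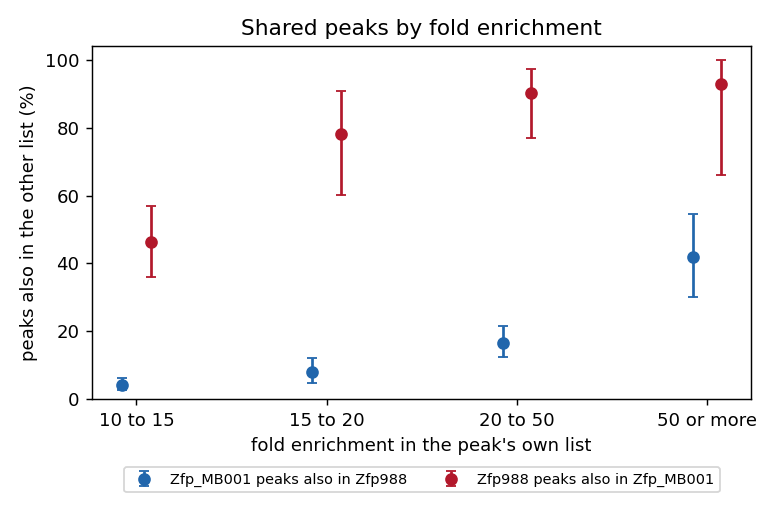
Percentage of peaks that were also in the other list, by the peak's own fold enrichment, for Zfp_MB001 peaks (blue) and Zfp988 peaks (red). Points are percentages and bars are exact 95% binomial intervals; at a fold of 50 or more the values were 42.03% for Zfp_MB001 and 92.9% for Zfp988.

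The folds of both libraries were loosely related over the shared sites. Over the 119 sites the folds had a Spearman correlation of 0.38, and a Pearson correlation of 0.46 between their log2 values, given as a description because sites of the same libraries are not replicates. Only sites with a fold of at least 10 in both libraries entered, and the effect of this cutoff on the correlations was not tested. The Zfp_MB001 fold was the higher at 81 sites and the Zfp988 fold at 38. The ratio of the Zfp_MB001 fold to the Zfp988 fold had a median of 1.36 and ranged between 0.21 and 8.02. The 2 folds were computed against the inputs of different batches, so the ratio compares deposited values and not amounts of bound protein.

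**Figure D3:**
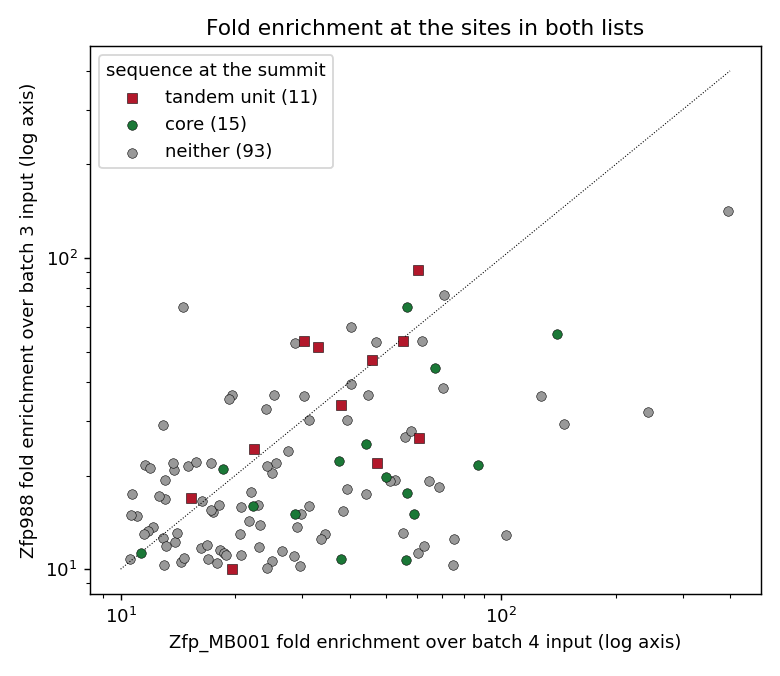
Zfp_MB001 fold enrichment (horizontal, log axis) and Zfp988 fold enrichment (vertical, log axis) at the 119 shared sites, 1 point a site, with sites holding the tandem unit as red squares (11), the core as green circles (15) and neither as grey circles (93). The dotted line marks equal folds, and the site with the highest fold in both libraries lies at 395.5 and 141.8.

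The core was about as frequent at the shared sites as at the sites of the Zfp_MB001 list only. With at most 2 mismatches on either strand of the 200 bp around the summit, it was found at 15 of 119 shared sites (12.6%, 7.23% to 19.9%), at 108 of 1033 sites of the Zfp_MB001 list only (10.5%, 8.66% to 12.5%) and at 0 of 63 sites of the Zfp988 list only, which allows a share of up to 4.76%. The background in the other 40 lists was 0.415% of 23641 summit windows. In windows 1000 bp upstream of the same summits the core was found at 1 shared site and at 2 sites of the Zfp_MB001 list only. The core lay close to the Zfp_MB001 summit, with a median distance of 10.5 bp at shared sites and 13 bp at sites of the Zfp_MB001 list only. In the other 40 lists its median distance from those lists' own summits was 54 bp. Across the genome the core had 52157 matches with at most 2 mismatches, of which 140 lay in Zfp_MB001 peaks and 19 in Zfp988 peaks, 18 of these in both. Most sites of both lists therefore held no core match, and most core matches were in no peak of the pair.

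**Figure D4:**
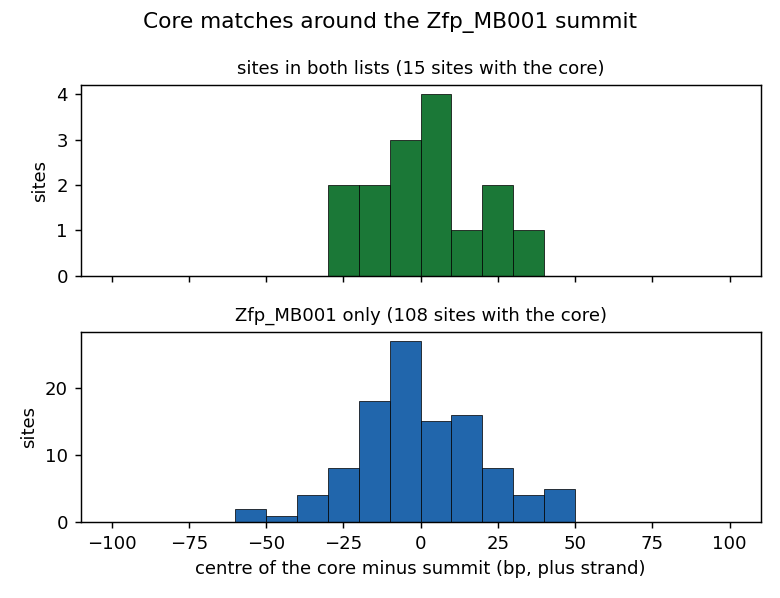
Histograms of the distance in bp from the Zfp_MB001 summit to the centre of the core match, in bins of 10 bp, for 15 shared sites (top, green) and 108 sites of the Zfp_MB001 list only (bottom, blue). The median distance without regard to direction was 10.5 bp at the shared sites and 13 bp at the others.

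The sequence after the core differed between the classes of sites. The triplet ACC followed directly at 0 of 15 shared sites (exact interval 0% to 21.8%, a count of 0 allowing up to 20%) and at 49 of 108 sites of the Zfp_MB001 list only (45.4%, 35.8% to 55.2%). These intervals do not overlap. The triplet CCC, with which the Zfp988 motif continues, followed at 3 of 15 shared sites (20%, 4.33% to 48.1%) and at 9 of 108 sites of the Zfp_MB001 list only (8.33%, 3.88% to 15.2%), with overlapping intervals. The first base after the core was C at 8 of the 15 shared sites and at 27 of the 108 others, and it was A at 3 and at 63. The printed stretches show both forms, since the Asic1, Gm48302 and Usp21 sites continue with ACC and none of the 5 shared sites does. Of these 5, all but Dus2 also have a mismatch at the end of the core itself. The printed stretches of the Zfp_MB001 list only have none there, so the contrast in these stretches is not confined to the bases after the core.

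A word that spans the end of the core gave the same order in more sites. CTCCCACC, on either strand, was present at 6 of 119 shared sites (5.04%, 1.87% to 10.7%) and at 182 of 1033 sites of the Zfp_MB001 list only (17.6%, 15.3% to 20.1%). It was present at 2 of 63 sites of the Zfp988 list only (3.17%, 0.387% to 11.002%) and in 1.67% of the windows of the other 40 lists. Among sites of the Zfp_MB001 list only with a fold of 50 or more, 16 of 39 held it (41.0%, 25.6% to 57.9%), while among shared sites in that range 2 of 29 did (6.90%, 0.846% to 22.8%). At folds of 20 to 50 the shares were 21.4% (16.3% to 27.2%) and 4.26% (0.520% to 14.5%) in the same order. At folds of 10 to 15 they were 15.5% and 8.33%, and at 15 to 20 they were 14.7% and 0%. In these 2 lower ranges the intervals of the classes overlapped. The shorter ATCCTCCC, which lies within the core, was found at 11 of 119 shared sites (9.24%, 4.71% to 15.9%) and at 139 of 1033 sites of the Zfp_MB001 list only (13.5%, 11.4% to 15.7%), with overlapping intervals. CTCCCCCC, the same word with the continuation of the Zfp988 motif, was found at 3 shared sites (2.52%), at 24 sites of the Zfp_MB001 list only (2.32%), at 2 of the Zfp988 list only (3.17%) and in 1.55% of the windows of the other 40 lists. The triplets and words were chosen after motifs and sequences of the peaks had been seen.

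A short word further along the Zfp988 motif was found in all classes of sites. AAAGGGC, found in the Zfp988 RCADE motif, was present at 9 of 119 shared sites (7.56%, 3.52% to 13.9%), at 85 of 1033 sites of the Zfp_MB001 list only (8.23%, 6.63% to 10.1%) and at 10 of 63 sites of the Zfp988 list only (15.9%, 7.88% to 27.3%), against 2.71% in the other 40 lists. In windows 1000 bp upstream it was present at 6 shared sites, at 25 sites of the Zfp_MB001 list only and at 4 of the Zfp988 list only. The best match to the whole Zfp988 motif was closer at the summit than in the upstream window at 79.0% of shared sites, 73.0% of sites of the Zfp_MB001 list only, 50.8% of sites of the Zfp988 list only and 48.9% of windows of the other lists. It was less close at the summit at 7.56%, 13.6%, 25.4% and 26.7% in the same order, and the rest were ties. By this measure the sites of the Zfp988 list only were near the other 40 lists.

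A tandem unit marked a small group of sites that was almost entirely shared. GGAGTGCCCTCATTG, the motif that MEME gave the study for Zfp988, was present with at most 2 mismatches in the summit windows of 11 of 119 shared sites (9.24%, 4.71% to 15.9%), of 2 of 1033 sites of the Zfp_MB001 list only (0.194%, 0.0235% to 0.698%) and of 0 of 63 sites of the Zfp988 list only, which allows up to 4.76%. The background in the other 40 lists was 0.0423%. MEME derived this motif from Zfp988 peaks, so a low share at sites without a Zfp988 peak follows partly from how it was obtained. The contrast between the classes is therefore a description and was not tested. The unit was repeated on 1 strand in 9 of the 11 shared peaks, with up to 4 copies in a peak, and the starts of neighbouring copies were 25 to 56 bp apart (median over peaks 27.5 bp). The stretches of 120 bases centred on the Zfp_MB001 summits of 2 intergenic sites show the repeat, with copies in capitals.
chr9:6430998-6431117, plus strand: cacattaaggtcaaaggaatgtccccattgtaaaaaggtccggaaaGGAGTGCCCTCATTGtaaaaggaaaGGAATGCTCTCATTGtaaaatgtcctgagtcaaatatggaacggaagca
chr14:97780606-97780725, minus strand: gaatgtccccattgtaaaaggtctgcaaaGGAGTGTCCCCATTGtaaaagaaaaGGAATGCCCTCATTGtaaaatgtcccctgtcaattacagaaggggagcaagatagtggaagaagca
Windows with the unit also resembled each other outside it. Joined at 80% identity over at least 100 bp, they formed a sequence family of 12 Zfp_MB001 and 11 Zfp988 windows with no window of another list. The 11 Zfp988 windows lie at the loci of 11 of the Zfp_MB001 windows, so the family has 12 loci. It was the largest family of the Zfp988 list, with 11 of 182 windows (6.04%, 3.06% to 10.6%). With windows of 400 bp the largest family of that list held 7 (3.85%), and at 90% identity 4 (2.198%). Whether these are the same family is not shown here.

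Folds were compared at the tandem sites and at the core sites as a description, with few sites of either kind. At the 11 shared tandem sites the median fold was 38.1 for Zfp_MB001 and 33.6 for Zfp988, and the Zfp988 fold was the higher at 6. At the 15 shared sites with a core the median was 50.0 for Zfp_MB001 and 19.8 for Zfp988, and the Zfp988 fold was the higher at 3. The tandem sites ranged between 15.4 and 60.7 for Zfp_MB001 and between 10.0 and 91.3 for Zfp988. Of their Zfp988 summits, 6 were intronic and 5 intergenic. The whole genome held 46 places where copies of the unit with at most 2 mismatches started within 60 bp of each other on 1 strand. Of these, 9 (19.6%) lay in Zfp_MB001 peaks and 9 in Zfp988 peaks, and these were the same 9 places.

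The largest family of the Zfp_MB001 list had no Zfp988 peak. It held 28 of 1152 Zfp_MB001 windows (2.43%, 1.62% to 3.49%) and no window of any other list, and 27 of the 28 contained the MEME motif of Zfp_MB001 without mismatch. That motif was absent from all 119 shared sites, which allows up to 2.52% (exact interval up to 3.05%). It was present at 27 of 1033 sites of the Zfp_MB001 list only (2.61%, 1.73% to 3.78%), and the exact intervals overlap. It was found in 1 of the 23641 windows of the other lists. This motif was derived from Zfp_MB001 peaks, so these counts are a description too. The folds in this family were low, with a median of 12.5 and a range of 10.2 to 28.8. Of all Zfp_MB001 peaks with a fold of 10 to 15, 24 of 566 were shared (4.24%), so few shared members would match that share. The members of the family were intergenic (20) or intronic (8). The member with the highest fold is shown with the match in capitals, from intergenic sequence whose nearest annotated start is that of Tunar.
chr12:105271450-105271509, plus strand: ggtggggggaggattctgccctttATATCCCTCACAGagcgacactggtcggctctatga
A further family of 22 Zfp_MB001 windows and 2 windows of other lists also had no Zfp988 peak. Over all folds 10.3% of Zfp_MB001 peaks were shared, so few shared members would match that share. The share varied with fold, and the folds of this family are not given here. Most sites belonged to no family. Of the shared sites, 99 of 119 (83.2%, 75.2% to 89.4%) resembled no summit window at another locus in any list, against 919 of 1033 sites of the Zfp_MB001 list only (89.0%, 86.9% to 90.8%) and 57 of 63 of the Zfp988 list only (90.5%, 80.4% to 96.4%). The aligner kept 1 of several equally good positions at random, and its part in the counts of repeated sequences was not tested.

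**Figure D5:**
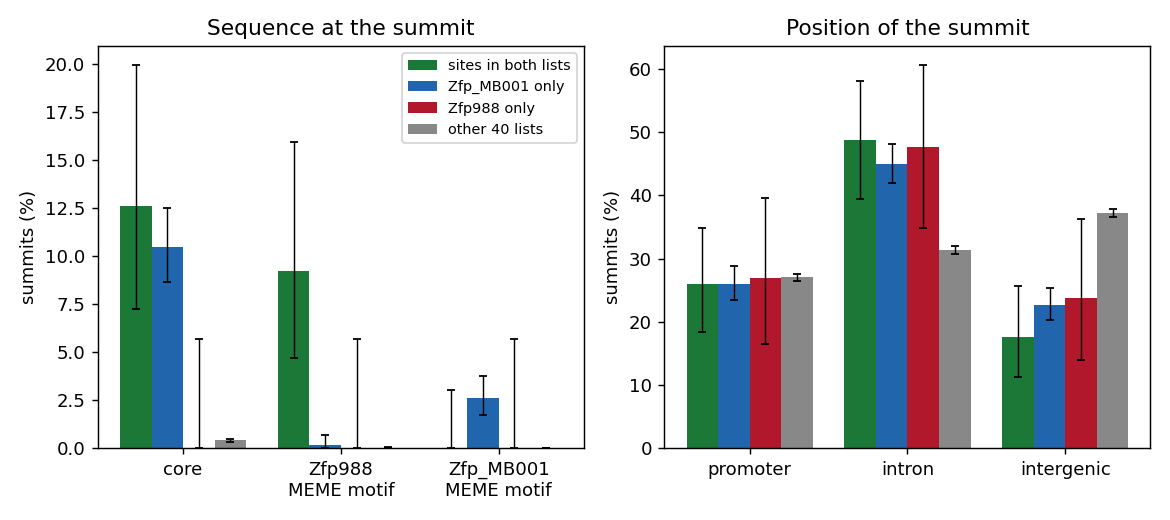
Percentage of summits with each sequence in the 200 bp around them (left) and in each kind of position (right), for shared sites (green, 119), the Zfp_MB001 list only (blue, 1033), the Zfp988 list only (red, 63) and the other 40 lists (grey, 23641), with exact 95% binomial intervals. The Zfp988 MEME motif stood at 9.24% of shared sites and 0.194% of sites of the Zfp_MB001 list only, while the promoter shares were 26.1% and 26.0%. The motifs and the core were derived from peaks of the pair, so their shares are descriptions.

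Promoter shares lay close together over all deposited peaks. A summit within 1000 bp of an annotated transcription start was found at 31 of 119 shared sites (26.1%, 18.4% to 34.9%), 269 of 1033 sites of the Zfp_MB001 list only (26.0%, 23.4% to 28.8%) and 17 of 63 sites of the Zfp988 list only (27.0%, 16.6% to 39.7%), against a background of 27% in the other 40 lists. With folds of 15 or more (at shared sites, the Zfp_MB001 fold) the shares were 29.5%, 26.3% and 8.33% in the same order. The last came from 1 of 12 sites (0.211% to 38.5%). The whole lists ranked 12th (Zfp_MB001, 26.0%) and 11th (Zfp988, 27.5%) of 42 in this share, and the median of the other 40 lists was 16.3%. Introns held 48.7% of shared sites (39.5% to 58.1%), 45.0% of sites of the Zfp_MB001 list only (41.95% to 48.1%) and 47.6% of those of the Zfp988 list only (34.9% to 60.6%), against 31.4% of the other 40 lists (30.8% to 32.0%). Intergenic sequence held 17.6%, 22.7% and 23.8% of these classes in the same order and 37.1% of the other 40 lists. The 200 bp windows at promoters had a median of 4 CpG at shared sites, 5 in the Zfp_MB001 list only, 4 in the Zfp988 list only and 15 over the pooled peaks of the other 40 lists. Among the 27 other lists with at least 10 promoter peaks, however, the median of the lists' own medians was 8 and the range 2.5 to 23, so the pair lay inside that range.

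The strongest shared site in both libraries lay at a long noncoding RNA gene. Its fold was 395.5 for Zfp_MB001 and 141.8 for Zfp988, at chr7:132531869-132533295, with the summit 26 bp from the start of Gm74013. Both values were the highest of their lists. The summits of the 2 libraries were 2 bp apart, and the site also overlapped a Zfp982 peak. It held neither the core nor the tandem unit.

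Among the 12 promoter sites with the highest lower fold, 7 were at protein-coding genes. The site at Ptov1, named for its raised level in prostate tumours (chr7:44512086-44513474), had a fold of 244.2 for Zfp_MB001 and 32.1 for Zfp988. The site at Upf1, the RNA helicase of nonsense-mediated decay (chr8:70806176-70807121), had folds of 87.2 and 21.7 for the same proteins in that order. At both, the Zfp_MB001 fold was the higher by a wide margin. The site at Pfkm, the muscle form of the glycolytic enzyme phosphofructokinase, was at chr15:98006151-98006809 with the Zfp_MB001 summit 7 bp from a start. Its fold was 40.3 for Zfp_MB001 and 60.1 for Zfp988. The site at Cdc42bpa, a kinase bound by the GTPase CDC42 (chr1:179787809-179789603), had folds of 30.4 and 36.1. These were the only protein-coding promoters among those named here with the higher fold in the Zfp988 library.

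At the other named promoters of protein-coding genes the Zfp_MB001 fold was the higher. Efcab12, an EF-hand protein (chr6:115814991-115815599), had folds of 66.9 for Zfp_MB001 and 44.3 for Zfp988. Cib3, of the calcium and integrin binding family (chr8:72965465-72966228), had folds of 61.8 and 54.1. Lpp, a LIM domain protein of focal adhesions (chr16:24210970-24211775), had folds of 39.3 and 30.1. The noncoding genes Gm71715, Gm41029, Gm20208 and Gm71234 made up the rest of the 12 promoter sites with the highest lower fold. Gm41029 (chr13:97674502-97675447) was the most unequal of these, with a fold of 146.4 for Zfp_MB001 and 29.3 for Zfp988. Gm71715 (chr5:53828587-53829220) had 56.57 and 69.66, Gm20208 (chr12:29580390-29580814) 25.3 and 36.2, and Gm71234 (chr5:145244561-145245273) 27.5 and 23.9.

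Away from promoters, 3 of the 6 shared sites with the highest lower fold were tandem sites. This depends on the ranking. By Zfp_MB001 fold alone, sites without the unit reached 140.2 and 127.1 there, and tandem sites reached 60.7. By Zfp988 fold alone, a tandem site came first, at 91.3. The intronic site in ENSMUSG00000144281 (chr1:7572417-7573189), with 4 copies of the unit, had a fold of 60.5 for Zfp_MB001 and 91.3 for Zfp988. The tandem site in an intron of the noncoding gene Gm28893 (chr1:44437108-44437814) had folds of 55.3 and 54.0. The tandem site in an intron of Mtdh, which encodes metadherin (chr15:34103990-34104591), had folds of 45.7 and 47.1. The other sites of these 6 held no tandem unit. An intronic site in Dnajb6, a cochaperone of the HSP40 family (chr5:30015453-30016190), had folds of 70.66 and 76.2. The site in an exon of Gm63776 near Kcnn1 (chr8:71317980-71318584) had 140.2 and 56.9, and an intergenic site nearest to Gm28578 (chr19:45284145-45284698) had 46.8 and 53.6.

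Strong Zfp_MB001 sites were also found without a Zfp988 peak. The highest fold was 201.5, at an intergenic site 11134 bp from the nearest start, that of Gm63432 (chr14:99268796-99270560). The promoter sites of Taf6l, a subunit of the SAGA coactivator complex (chr19:8762913-8763878), Gpatch3, a G-patch protein (chr4:133301413-133302472), and Anapc13, a subunit of the anaphase-promoting complex (chr9:102503401-102504186), had Zfp_MB001 folds of 190.3, 166.1 and 150.7 in that order. An intergenic site nearest to Gm64209 (chr8:85537129-85537928) had a fold of 162.2. Each of these folds exceeded all but 2 of the Zfp_MB001 folds named above for shared sites.

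Strong sites of the Zfp988 list only were few. The highest had a fold of 72.6, in an intron of Niban2, an apoptosis regulator (chr2:32774822-32775517). The next had 36.6, in an intron of Hsd17b12, a reductase of fatty acid elongation (chr2:93865816-93866373), and 25.2, at an intergenic site nearest to Abtb2 (chr2:103394972-103395692). None of these 3 held the core or the tandem unit. All 3 lie on chromosome 2, which held 9 of the 63 sites of this class. It also held 73 of 1033 sites of the Zfp_MB001 list only and 3 of 119 shared sites. With so few sites, a difference between chromosomes was not tested.

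Groups of promoter genes gave few members. Genes with a start within 1000 bp of a summit numbered 41 at shared sites, 352 at sites of the Zfp_MB001 list only and 25 at sites of the Zfp988 list only, of which 21, 198 and 9 were protein-coding. Over all classes this was 228 of 21749 protein-coding genes (1.05%), and the counts of the groups are read against that share. None of 90 cytosolic and none of 78 mitochondrial ribosomal protein genes was at a site of the pair. About 1 gene of each group would match the share over all protein-coding genes. Sites of the other 40 lists held 20 (22.2%) and 15 (19.2%) of them. These are near the 19.6% of all protein-coding genes (4270 of 21749) at sites of those lists. Of 494 zinc finger genes, 1 (Zfp532) was at a shared site and 7 were at sites of the Zfp_MB001 list only. Sites of the other 40 lists held 107 (21.7%), also near 19.6%. The 8 genes at sites of the pair are 1.62% of the group. Of 105 histone genes, only H1f1 was at a site of the pair (0.952%), in the Zfp_MB001 list only. Of 14 genes of the KRAB corepressor machinery, only Cbx3, which encodes a heterochromatin protein 1, was at a site of the pair, also in the Zfp_MB001 list only, and a single gene says nothing of the group. Of 2865 small nuclear and nucleolar RNA genes, 4 were at sites of the Zfp_MB001 list only (0.14%, against 0.535% of all 77986 annotated genes). The other 40 lists hold far more peaks, so these counts are not rates.

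About 1 in 10 sites of the pair were in lists of other KZFPs. No other list overlapped 108 of 119 shared sites (90.8%, 84.1% to 95.3%), 931 of 1034 peaks of the Zfp_MB001 list only (90.04%, 88.0% to 91.8%) and 55 of 63 of the Zfp988 list only (87.3%, 76.5% to 94.4%). Of the peaks of the other 40 lists, 75.4% overlapped no peak of another of these lists. At least 3 other lists overlapped 1, 8 and 2 of these in the same order. The list with most overlaps was Zfp982, with 41 Zfp_MB001 peaks and 9 Zfp988 peaks hit, from a list of 4746 peaks. Across the 40 lists, the share of a list's peaks in the Zfp_MB001 list had a median of 0.643% and a maximum of 3.57%, and the share in the Zfp988 list had a median of 0% and a maximum of 1.79%.

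Another KZFP has an array like those of the pair. Zfp_MB010, profiled in batch 3, has 16 fingers and shares 11 fingerprints with Zfp_MB001 and 10 with Zfp988 in the best alignment without gaps, the highest numbers of the other KZFPs with an array in the study's table. Its list holds 43 peaks, of which 1 overlapped a Zfp_MB001 peak (2.33%, the second highest share of the 40 lists) and 0 overlapped a Zfp988 peak, where a count of 0 allows up to 6.98%. No other array shared more than 5 fingerprints with Zfp988.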

How the data were processed

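ChIP-seq peaks of 42 KZFPs, 1 library each, were analysed. The authors aligned reads to GRCm39 with BWA, kept 1 of equally good alignments at random, called peaks with MACS2 2.2.7.1 against each batch's mixed input and dropped those that touched an empty vector peak. The fold minimum differs between lists. The submitters' processing notes also name SAMtools 1.19 and deepTools 3.5.4. The deposited lists give each peak's fold enrichment, a ratio over input, its −log10 p and −log10 q, and its summit. The authors' display score and the −log10 values entered no result.

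Peaks were compared by overlap of at least 1 bp. Windows of 200 bp around summits were read from GRCm39, and genes from GENCODE. A shared site was described at its Zfp_MB001 summit. Peaks on scaffolds (37 in all, 1 of Zfp_MB001) were left out where sequence or genes were needed. Motifs were searched on both strands of the window and of one 1000 bp upstream. Summit windows of the pair were aligned to those of all lists with blastn 2.17.0, and families were joined greedily from seeds of the pair only, because aligning all windows to each other took too long. Intervals are exact 95% binomial (SciPy 1.17.1), and a count of 0 allows 3 counts of the total. No test was run, since each protein has 1 library and peaks are not replicates. The scripts were checked on simulated sequences and lists.

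Sites named are the 12 promoter and 6 other shared sites with the highest lower fold, and the 5 Zfp_MB001 and 3 Zfp988 sites in 1 list with the highest fold. Sites printed for the core and the Zfp532, H1f1 and Cbx3 promoters were chosen afterwards. A gene is that with a start within 1000 bp, else the one holding the summit, else the nearest. The pair, the gene lists and the settings were chosen with earlier results of these data known. Overlap with annotated repeats, RLTR47 among them, was not analysed here. Of the results planned, 1 sequence and the comparisons that need it are not reported here.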

Additional observations from a re-analysis of the deposited data

How the results depend on the processing

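Of 63 recomputed values, 45 stayed within the exact 95% interval of the reported value (for the summit distance, the interval of its median) and 18 moved out of it. With both lists cut to folds of 15 or more, 74.71% of Zfp988 peaks were shared. A Zfp988 peak on a Zfp_MB001 peak of lower fold then counted as not shared. Among sites of the Zfp988 list only with folds of 15 or more, the promoter share was 8.33% (1 of 12 sites). At 2500 bp from a start the promoter shares were 37.8% (shared sites), 37.7% (Zfp_MB001 only) and 42.9% (Zfp988 only), with protein-coding starts 16.8%, 17.7% and 14.3%, and at 500 bp 19.4% for Zfp_MB001 only. The core with at most 1 mismatch was at 4.20% of shared sites and 2.42% of Zfp_MB001-only sites, and with at most 3 at 29.4%, 31.8% and, for Zfp988 only, 7.94%. At 90% identity the largest Zfp988 family held 2.198%, and with 400 bp windows 3.85%. The alternatives below were chosen after seeing the data. With at most 1 and at most 3 mismatches in the core, ACC followed it at 0% and 2.86% of shared sites and at 44.0% and 32.8% of Zfp_MB001-only sites. The tandem unit was at 0% and 1.26% of Zfp_MB001-only sites with at most 1 and 3 mismatches.

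No paired analysis was possible because each KZFP has 1 library. Folds come from 2 batches with different inputs, and batch and protein cannot be told apart. The number of reads behind a peak is unknown, and a site missing from a list may lie under its fold minimum of 10. The 63 Zfp988-only sites and 15 shared core sites limit the precision of every share over them.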
